A study of Drosophila melanogaster with 8 samples.

Results

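The 8 homeotic Hox genes of D. mel, lab, pb, Dfd, Scr, Antp, Ubx, abd-A and Abd-B, were followed through the first hours of embryogenesis in embryos with and without maternal NSUN2. They were chosen by gene symbol, and all 8 were found among the 15598 genes of each table. Polyadenylated RNA of pooled whole embryos had been sequenced, with 1 table of gene levels per condition. The unit is the FPKM, a fragment count scaled to transcript length and to sequencing depth, so levels of different genes can be set side by side. Maternal NSUN2 knockout embryos came from NSUN2-/- virgin females crossed with w1118 males and were collected at 0–0.5, 2–3 and 4–5 h. Wild-type embryos came from w1118 virgin females crossed with the same males and were collected at 0–0.5, 1–2, 2–3, 3–4 and 4–5 h. The strain label is WIII8 for both genotypes, and Nsun2 lies on the X chromosome, so daughters of this cross carried a paternal wild-type copy of the gene and sons did not. NSUN2 is an RNA methyltransferase that places 5-methylcytosine in RNA.

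The homeotic genes encode homeodomain transcription factors that give the segments along the head-to-tail axis their identity. They lie in a pair of clusters, the Antennapedia complex (ANT-C) and the bithorax complex (BX-C), in roughly the order of the body regions in which they act, a relation called collinearity. Their first pattern is set by the gap and pair-rule segmentation factors, and it is later kept by the Polycomb and trithorax group proteins.

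All 8 loci are on chromosome 3R of the BDGP5 assembly, 5 in ANT-C and 3 in BX-C. ANT-C members lie, in order, at 3R:2487149-2504312 for lab, 3R:2533518-2567785 for pb, 3R:2617558-2628153 for Dfd, 3R:2648842-2675703 for Scr and 3R:2721975-2824950 for Antp. BX-C follows 9657 kb further on, with Ubx at 3R:12482345-12560348, abd-A at 3R:12632936-12655767 and Abd-B at 3R:12752932-12797958. Dfd is annotated on the plus strand and the other members on the minus strand. These are long genes. The locus span was 17.2 kb for lab, 34.3 kb for pb, 10.6 kb for Dfd, 26.9 kb for Scr and 103 kb for Antp. In BX-C it was 78 kb for Ubx, 22.8 kb for abd-A and 45.0 kb for Abd-B, against a median of 1.84 kb over all genes.

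Each condition has 1 table, so differences could not be checked against replicates and p-values were not computed. By the methods of the study, replicate FPKM values had been averaged, and how many replicates stand behind each table is not given in the sources used here. Each value carries the lower and upper bound that Cufflinks gave it, shown as an interval in parentheses. These intervals cover the uncertainty within a table only. A gene is said to have risen or fallen where the intervals of 2 tables did not overlap. Because whole embryos were pooled, fewer cells that express a gene and less RNA per cell cannot be told apart.

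The targeted gene, Nsun2, stood at 0.128, 0.213 and 1.18 FPKM in maternal NSUN2 knockout embryos at 0–0.5, 2–3 and 4–5 h, against 2.61, 2.71, 2.71, 12.7 and 6.59 FPKM in wild-type embryos at the 5 stages. Markers were read in every table to check the stages. The summed FPKM of 5 maternal RNAs (bcd, nos, osk, gcl and pgc) was 1373, 510 and 179 in the knockout at 0–0.5, 2–3 and 4–5 h, against 1343, 711, 114, 53.3 and 46.0 in wild type at the 5 stages. The wild-type table of 3–4 h stands apart in muscle genes: Mlc1, Mlc2, Act57B, up and wupA, 5 of a list of 9 genes of differentiated late embryos singled out after their values were seen, summed to 142 FPKM there. Their sum was 9.84 FPKM in wild type at 4–5 h and at most 3.26 FPKM in every other table. Act87E of the same list did not follow them, with 110 FPKM at 3–4 h and 123 FPKM at 4–5 h in wild type. The neuronal gene elav stood at 16.4 and 15.0 FPKM in the same 2 tables. Over the whole 9-gene list, the sum ran from 0.676 to 59.7 FPKM in the 3 knockout tables and from 1.52 to 269 FPKM in the 5 wild-type tables, and Mhc and repo stayed below 1 FPKM everywhere. In the knockout table of 2–3 h the eggshell gene Cp15 of the follicle cells was at 11.7 FPKM of a sum of 11.8 FPKM over 9 follicle cell markers, a sum of 0.933 to 4.43 FPKM in the other tables, whereas the 3 yolk protein genes were below 1 FPKM in every table. The part of older or maternal material in the homeotic values was not tested, and the times to 10% of the highest value, the ages and the step after 2–3 h are also given without the 3–4 h table.

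Homeotic RNA was nearly absent from freshly laid eggs and was abundant by 3–4 h in wild type. The FPKM summed over the 8 genes was 0.101, 1.69 and 30.5 in maternal NSUN2 knockout embryos at 0–0.5, 2–3 and 4–5 h. In wild-type embryos the sum was 0.516, 2.2, 11.0, 81.5 and 72.3 at 0–0.5, 1–2, 2–3, 3–4 and 4–5 h. The knockout sum at 4–5 h thus lay between the wild-type sums of 2–3 h and 3–4 h.

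Of the members that act in the head, lab and pb were the least abundant of the 8 in both genotypes at 4–5 h. The labial gene lab, needed for the intercalary segment of the head and for part of the midgut, was listed at 0 in knockout embryos of 0–0.5 and 2–3 h and reached 0.936 FPKM (0.646 to 1.22) at 4–5 h. In wild type, lab was listed at 0 in the first 2 stages, and the later stages had 0.170 (0.0167 to 0.324), 1.69 (1.30 to 2.08) and 2.40 FPKM (1.84 to 2.96). Its highest value came in the last stage, as for Scr and Abd-B, although for all 3 the interval of 4–5 h overlapped that of 3–4 h. The proboscipedia gene pb, which specifies the adult mouthparts, never reached 1 FPKM. It stood at 0.00910, 0.00910 and 0.167 FPKM in the knockout at its 3 stages, against 0, 0.0543, 0.0902, 0.848 and 0.736 FPKM in wild type at the 5 stages.

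Deformed, Dfd, which specifies the mandibular and maxillary segments, appeared before the other head genes. Knockout embryos of 0–0.5 h had it listed at 0, those of 2–3 h had 0.0754 FPKM (0.0138 to 0.137) and those of 4–5 h 1.54 FPKM (1.26 to 1.81). Wild type had 0.0159, 0.329, 1.40 (1.10 to 1.70), 7.07 (6.40 to 7.74) and 3.37 FPKM (2.87 to 3.86) at the 5 stages. In wild type Dfd fell after 3–4 h to 0.476 of its level, and abd-A was the one other member that fell, to 0.793.

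Sex combs reduced, Scr, which acts in the labial segment and the first thoracic segment, came late. Knockout embryos had it listed at 0 at the first stage, followed by 0.0423 (0 to 0.0867) and 1.52 FPKM (1.29 to 1.76) at the later ones. Wild-type embryos had 0.0321, 0.0503, 0.171 (0.0829 to 0.258), 3.98 (3.54 to 4.42) and 4.18 FPKM (3.70 to 4.66) at the 5 stages. Antennapedia, Antp, the thoracic selector gene, was far more abundant. The knockout had 0.0388, 0.204 (0.112 to 0.296) and 8.23 FPKM (7.71 to 8.75) of Antp at its 3 stages. Wild type had 0.179 (0.0770 to 0.280), 0.328, 2.07 (1.79 to 2.35), 19.9 (19.0 to 20.9) and 18.1 FPKM (17.2 to 19.0) at the 5 stages.

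Among the BX-C members, Ubx came first in wild type. Ultrabithorax, Ubx, sets the identity of the posterior thorax and the first abdominal segment. Its knockout values were 0, 0.247 (0.150 to 0.344) and 3.45 FPKM (3.07 to 3.84) at the 3 stages, the first listed at 0 with an interval of no width. Its wild-type values were 0.0911, 0.779 (0.580 to 0.978), 4.00 (3.55 to 4.45), 10.1 (9.37 to 10.9) and 8.96 FPKM (8.22 to 9.71) at the 5 stages. At 1–2 and 2–3 h Ubx had the highest level of the 8 members in wild type, although at 1–2 h its interval overlapped that of abd-A.

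The abdominal gene abd-A stood at 0.0256, 0.631 (0.479 to 0.783) and 5.81 FPKM (5.33 to 6.29) in the knockout at its 3 stages. In wild type it stood at 0.129, 0.588 (0.428 to 0.748), 2.40 (2.06 to 2.74), 16.4 (15.5 to 17.4) and 13.0 FPKM (12.1 to 14.0) at the 5 stages. Its knockout level at 2–3 h overlapped the wild-type level of 1–2 h. Abd-B, which acts in the most posterior abdominal segments, stood at 0.0274, 0.478 (0.316 to 0.640) and 8.89 FPKM (8.18 to 9.61) in the knockout at its 3 stages. Wild type had 0.0691, 0.0650, 0.709 (0.483 to 0.936), 21.4 (20.1 to 22.7) and 21.5 FPKM (20.2 to 22.9) at the 5 stages. Its wild-type intervals of 0–0.5 and 1–2 h, 0 to 0.162 and 0 to 0.147, overlapped and reached 0, at stages between which Ubx rose. Abd-B was the most abundant member from 3–4 h on, its interval overlapping that of Antp at 3–4 h.

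**Figure D1:**
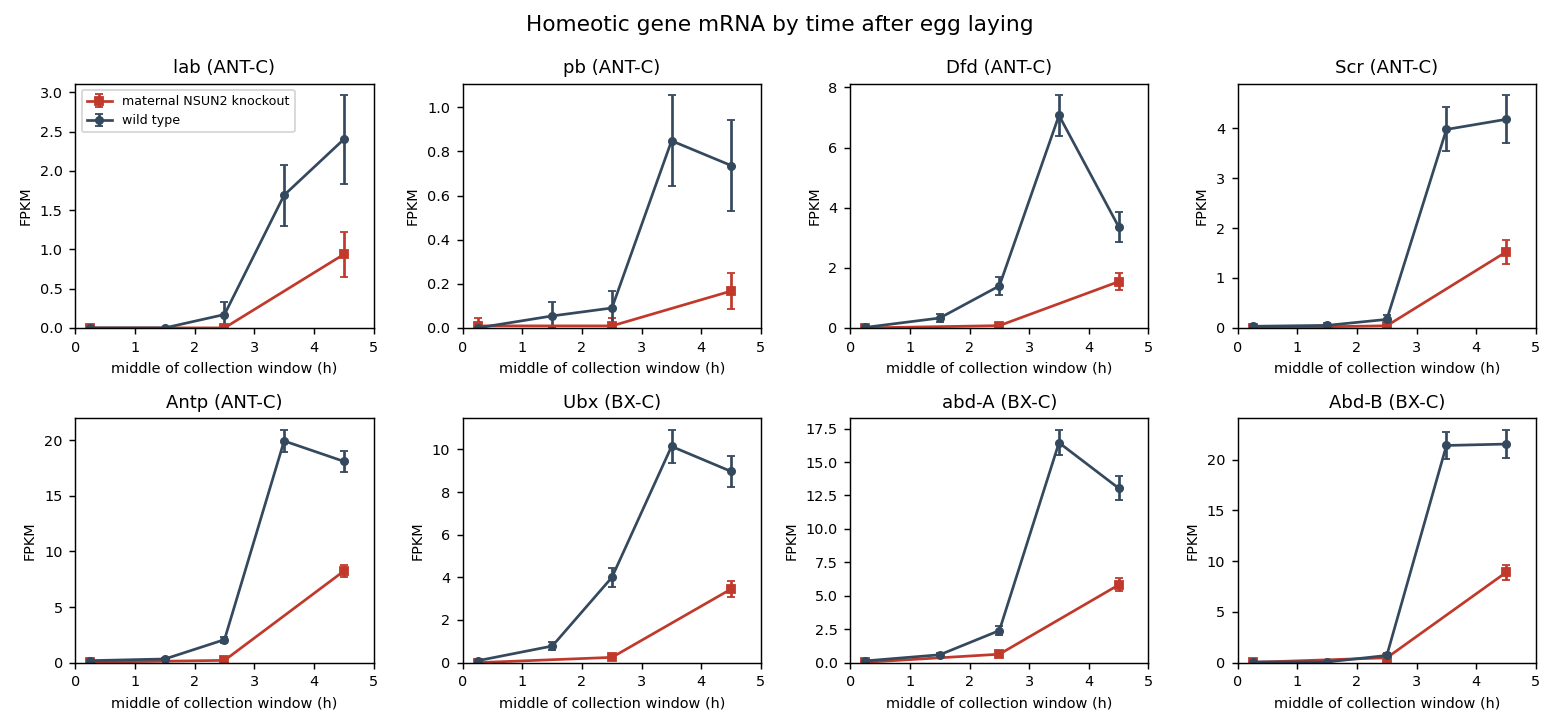
FPKM of each of the 8 homeotic genes (vertical axis, own scale in each panel) against the middle of the collection window in hours, for maternal NSUN2 knockout (red squares) and wild-type embryos (dark circles), 1 table per point, with bars for the Cufflinks interval. At 4–5 h the knockout point lies below the wild-type point in all 8 panels, at 8.89 against 21.5 FPKM for Abd-B and 0.167 against 0.736 FPKM for pb.

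On the log2(FPKM + 1) scale, the largest wild-type step of every member but Ubx fell between 2–3 and 3–4 h. From 0–0.5 to 1–2 h, 3 of 8 members rose, namely Dfd, Ubx and abd-A, and none of the 8 reached 1 FPKM in either table. The share of rising genes over all genes with at least 1 FPKM in either table was 19.3% at that step. From 1–2 to 2–3 h, 6 of 8 rose, 4 of them among the 4 members that passed this filter (26.3% of all genes tested), while pb and Scr overlapped. From 2–3 to 3–4 h all 8 rose, 7 of them past the filter, against 56.7% of all genes. Abd-B rose 30.2-fold and Scr 23.3-fold at this step, lab 9.92-fold, Antp 9.64-fold, pb 9.40-fold, abd-A 6.85-fold, Dfd 5.06-fold and Ubx 2.54-fold. Ubx thus had the smallest fold of the 8. From 3–4 to 4–5 h none rose (23.1% of all genes did) and 2 of 8 fell, Dfd and abd-A (32.5% of all genes fell). The wild-type table of 3–4 h enters both of the last steps. When it was left out, a choice made after seeing the data, all 8 members were higher at 4–5 h than at 2–3 h (54.6% of all genes were), by 2.24-fold for Ubx to 30.4-fold for Abd-B.

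In the knockout, 5 of 8 members rose between 0–0.5 and 2–3 h, none of them past the filter (35.4% of all genes tested rose). These were Dfd, Antp, Ubx, abd-A and Abd-B, and Dfd and Ubx were listed at 0 with an interval of no width in the earlier table. Between 2–3 and 4–5 h all 8 rose, 6 of them past the filter, against 33.5% of all genes. Antp rose 40.3-fold and Scr 36.0-fold at this step, while abd-A rose 9.21-fold and Ubx 14.0-fold.

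Onset was first read as the stage at which the lower bound of the interval reached 1 FPKM. In the knockout, Dfd, Scr, Antp, Ubx, abd-A and Abd-B passed this level at 4–5 h, and lab and pb did not pass it. In wild type, Dfd, Antp, Ubx and abd-A passed it at 2–3 h, lab, Scr and Abd-B at 3–4 h, and pb at no stage. The number on by 2–3 h in wild type depended on the level asked for, with 4 members at 1 FPKM, 2 at 2 FPKM and 0 at 5 FPKM.

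A second reading was the time at which the wild-type FPKM reached 10% of its own highest value, by straight lines between the middles of the collection windows. This time came first for Ubx, at 1.57 h, followed by Dfd at 1.85 h, abd-A at 2.08 h, pb at 2.35 h and Antp at 2.46 h. The last were lab at 2.55 h, Scr at 2.56 h and Abd-B at 2.57 h, which differ by far less than the width of a window. Without the 3–4 h table Dfd came first at 1.51 h, just ahead of Ubx at 1.54 h, then abd-A at 1.90 h, pb at 2.04 h, Antp at 2.35 h, lab at 2.56 h, Scr at 2.62 h and Abd-B at 2.64 h. The early genes, Ubx, Dfd and abd-A, were therefore spread over both complexes, and the genes at the ends of the order, lab and Abd-B, were both late. Spearman's rho between this time and the place along the complexes was 0.05 over the 8 genes, and with locus span it was 0.10. These are descriptions: the 8 points share the same libraries and lie on 1 chromosome arm, and place and span were themselves related (rho = 0.48).

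With other readings of onset these coefficients were negative, and for the time to 10% without the 3–4 h table they were small and positive. For the time to 25% of the highest value, rho was -0.29 with place and -0.10 with span, and for the time to 50% it was the same pair of values. For the time to 1 FPKM, which pb never reached, rho over 7 genes was -0.54 with place and -0.43 with span. Without the wild-type table of 3–4 h, an alternative chosen after seeing the data, rho for the time to 10% was 0.12 with place and 0.24 with span. The longest locus, Antp with 103 kb, and the shortest, Dfd with 10.6 kb, reached 50% of their highest value at 2.94 and 2.88 h, and Ubx, with 78 kb, was earliest at 2.67 h. Without the 3–4 h table these times were 3.37 h for Antp, 2.79 h for Dfd and 2.69 h for Ubx.

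**Figure D2:**
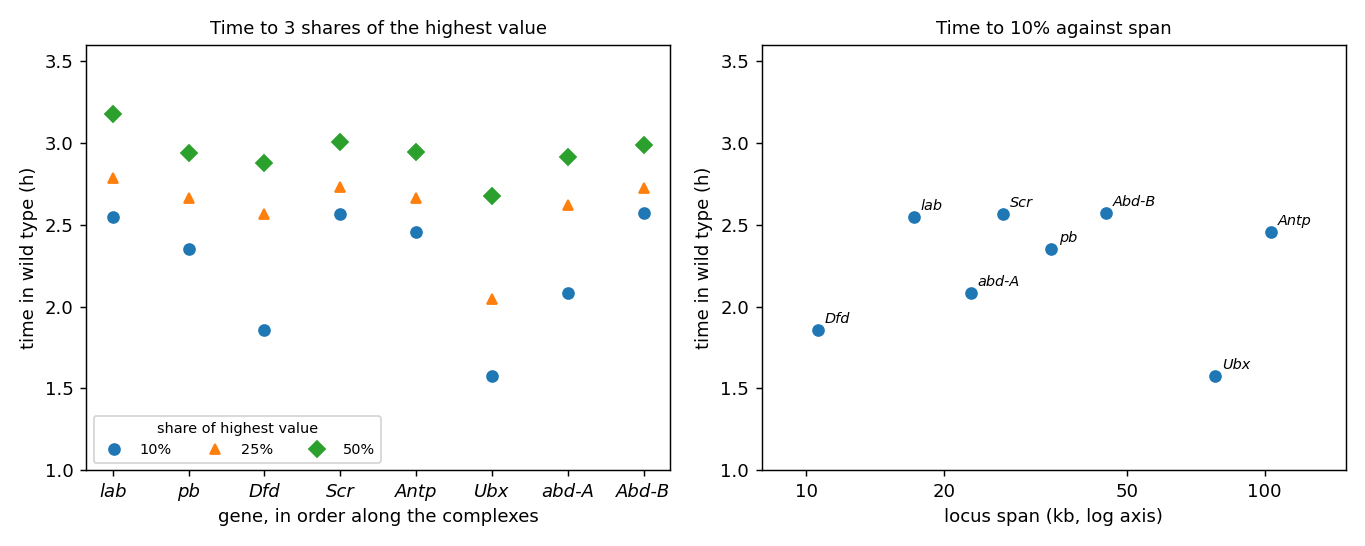
Left, time in wild type (h) at which each homeotic gene reached 10% (circles), 25% (triangles) and 50% (diamonds) of its highest FPKM, with genes in order along the complexes; right, the time to 10% against locus span in kb on a log axis. With all 5 wild-type tables, as plotted, Ubx has the earliest time to 10% at 1.57 h with a span of 78 kb, and Abd-B the latest at 2.57 h, while without the 3–4 h table Dfd comes first at 1.51 h.

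Over all genes, span was also read by the stage of onset. Median span was 2.51 kb for the 6520 genes already past 1 FPKM at 0–0.5 h, 3.06 kb for the 185 with onset at 1–2 h and 2.31 kb for the 338 with onset at 2–3 h. It was 2.95 kb for the 893 genes of 3–4 h and 1.22 kb for the 100 genes of 4–5 h. Genes of at least 20 kb made up 12.4%, 11.8% and 12.2% of those with onset at 1–2, 2–3 and 3–4 h, against 5.92% of those present at 0–0.5 h and 6% of those with onset at 4–5 h. Of the 7 members with an onset, all but lab and Dfd are of this length.

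Level, unlike onset, followed place. Spearman's rho between FPKM and the place along the complexes was 0.95 and 0.88 in the knockout tables of 2–3 and 4–5 h, against 0.67, 0.88 and 0.90 in wild type at 2–3, 3–4 and 4–5 h, each over the 8 genes of 1 table. In the knockout at 2–3 h all 8 genes were below 1 FPKM. Each interval there overlapped that of the next gene in the order of level, so that order is uncertain. In the knockout at 4–5 h the order ran from Abd-B and Antp, whose intervals overlapped, through abd-A and Ubx to Dfd and Scr, which overlapped, and then lab and pb. In wild type at 4–5 h it was Abd-B, Antp, abd-A and Ubx, each clear of the next, then Scr, Dfd and lab, of which each overlapped its neighbour, and pb.

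At 0–0.5 h none of the 8 members reached 1 FPKM in either genotype. Only Ubx had a knockout interval below that of wild type, listed at 0 in the knockout with an interval of no width, against 0.0911 FPKM (0.00836 to 0.174) in wild type (25.8% of all genes tested were below). The median difference on the log2(FPKM + 1) scale was -0.05 over the 8 genes and 0.12 over all genes tested.

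At 2–3 h the members split. The knockout interval lay below that of wild type for 5 of 8 members, lab, Dfd, Antp, Ubx and abd-A, and overlapped it for pb, Scr and Abd-B. All 4 members with at least 1 FPKM in either table were among those that fell (29.3% of all genes tested were below and 55.7% above). lab was listed at 0 in the knockout with an interval of no width, so its call rests on the 0.170 FPKM of the wild type. Ubx had 6.18% of its wild-type level, Dfd 5.39% and Antp 9.86%, while abd-A had 26.3% and Abd-B 67.4%.

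On the log2(FPKM + 1) scale, which understates changes of low genes, the difference at 2–3 h was -2.0 for Ubx, -1.35 for Antp, -1.16 for Dfd and -1.06 for abd-A. These 4 passed a 2-fold difference, as 11.3% of all genes tested did in the same direction. The difference was -0.23 for lab, -0.21 for Abd-B, -0.17 for Scr and -0.11 for pb. The median over the 8 was -0.64, against 0.43 over all genes tested. This stage was sensitive to scaling. The scaling factors between the knockout and wild-type tables were -0.55 for median-of-ratios and 0.29 for equal totals on the log2 scale, which moved the members by -0.33 to -0.03 and by 0.01 to 0.17 on the log2(FPKM + 1) scale. With the first, Scr and Abd-B were also below wild type, which made 7 of 8. With equal totals abd-A was at -0.89, short of a 2-fold difference, which left 3 of 8.

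By 4–5 h all 8 members were lower in the knockout than in wild type. None of the intervals overlapped, and 7 of the 8 calls were among members with at least 1 FPKM in either table, pb being the exception (44.7% of all genes tested were below and 31.9% above). The knockout level as a percentage of wild type was 39.0% for lab, 22.7% for pb, 45.7% for Dfd, 36.4% for Scr, 45.4% for Antp, 38.5% for Ubx, 44.5% for abd-A and 41.3% for Abd-B. Apart from pb, the least abundant, these values lie within 10 percentage points of each other, with a median of 40.1% over the 8.

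The same differences on the log2(FPKM + 1) scale were -1.19 for Abd-B, -1.16 for Ubx, -1.05 for Antp and -1.04 for both abd-A and Scr. These 5 of 8 passed a 2-fold difference, against 8.03% of all genes tested. The values were -0.81 for lab, -0.78 for Dfd and -0.57 for pb. The median over the 8 was -1.04, against -0.19 over all genes tested.

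A closer background was the set of genes that rise in wild type, 662 genes below 1 FPKM at 0–0.5 h and at 5 FPKM or more at 3–4 or 4–5 h, which was chosen on the wild-type values. Dfd, Antp, Ubx, abd-A and Abd-B are themselves in this set, while lab, pb and Scr stayed under 5 FPKM and are outside it. At 4–5 h, 84.8% of the 631 genes of the set that were tested were below wild type. Their median level was 44.1% of wild type, with quartiles of 32.5% and 54.2%. The homeotic median of 40.1% lies inside these quartiles. At 2–3 h, 73% of 445 such genes were below wild type, and their median difference was -1.38, against -0.64 for the 8 members, of which 4 had under 1 FPKM in both tables. The percentages of wild type stood in the opposite order at 2–3 h. The median was 9.97% for the members and 18.0% for these genes, with quartiles of 9.05% and 40.2%.

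**Figure D3:**
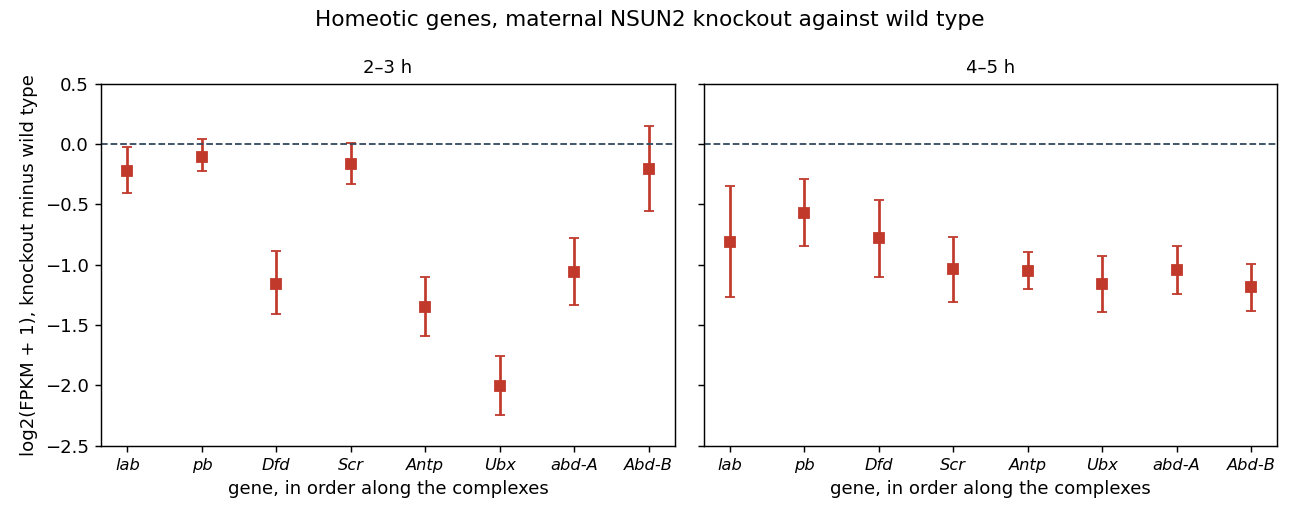
Difference in log2(FPKM + 1), maternal NSUN2 knockout minus wild type, for each homeotic gene in order along the complexes at 2–3 h (left) and 4–5 h (right), with bars spanning the extremes allowed by the 2 Cufflinks intervals and a dashed line at 0 for the wild-type level. At 2–3 h the points run from -2.0 for Ubx to -0.11 for pb, and at 4–5 h they lie between -1.19 and -0.57.

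Each knockout level was also placed on the wild-type course, as the time at which the wild-type FPKM first reached it. For the knockout of 4–5 h this wild-type age was 2.33 h for Ubx, 2.52 h for Dfd, 2.60 h for pb, 2.74 h for abd-A, 2.84 h for Antp, 2.85 h for Scr, 2.90 h for Abd-B and 3.00 h for lab. The median was 2.79 h, where the window itself was centred on 4.5 h, and the genes that rise in wild type had a median of 2.69 h with quartiles of 2.38 and 2.90 h. Without the wild-type table of 3–4 h the ages ran from 2.33 h for Ubx to 3.29 h for Abd-B, with a median of 3.16 h.

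For the knockout of 2–3 h the wild-type ages were further apart. They were 0.46 h for pb and Antp, 0.49 h for Dfd, 0.53 h for Ubx and 0.95 h for Scr. Read from the knockout bounds, the ages of pb, Dfd, Scr and Antp had no lower limit. Their upper limits were 1.28, 0.73, 1.80 and 1.23 h. The ages of abd-A, 1.52 h, and of Abd-B, 2.14 h, were the latest, and lab had none because it was listed at 0. The median over the 7 genes was 0.53 h, against 1.53 h for the genes that rise in wild type, with quartiles of 0.81 and 2.29 h. From the knockout bounds, the homeotic median ran from 0.25 to 1.28 h. A missing lower limit, also that of lab, was set to the middle of the first window. From the knockout bounds alone, the age interval was 0.36 to 0.71 h for Ubx and 1.89 to 2.39 h for Abd-B. These BX-C members, which lie on either side of abd-A, thus differed beyond these intervals. The intervals leave out the uncertainty of the wild-type values and are too narrow. The knockout level of Abd-B overlapped its wild-type level of 2–3 h.

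The knockout levels were also set directly against younger wild-type tables. In the knockout of 2–3 h against wild type of 1–2 h, Dfd and Ubx were lower (35.3% of all genes tested were), Abd-B was higher (42.8% were), and the other 5 members overlapped. In the knockout of 4–5 h against wild type of 2–3 h, lab, Scr, Antp, abd-A and Abd-B were higher (55.5% of all genes were), while pb, Dfd and Ubx overlapped. Against wild type of 3–4 h all 8 were lower, as were 49.6% of all genes.

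The make-up of homeotic RNA was read as the share of each gene in the summed FPKM of the 8. The ranges in parentheses combine the Cufflinks bounds of a gene with the opposite bounds of the others. At 4–5 h the make-up was close in both genotypes. Abd-B made up 29.1% (25.5 to 33.1) of the sum in the knockout and 29.8% (26.8 to 33.0) in wild type, Antp 26.9% and 25%, abd-A 19.0% and 18.0%, and Ubx 11.3% and 12.4%. The share of the sum that would have to pass between genes to make both compositions equal was 3.28 percentage points. Set against younger wild-type embryos, this distance of the knockout of 4–5 h was 6.42 points at 3–4 h and 35.8 points at 2–3 h. Against the wild-type course interpolated at its median age of 2.79 h it was 13.6 points, and 8.71 points at 3.16 h without the 3–4 h table.

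The compositions of 2–3 h were far apart, at 38.4 points. abd-A made up 37.4% (23.6 to 56.9) of the sum in the knockout and 21.8% (16.9 to 28.0) in wild type, and Abd-B 28.3% (15.8 to 45.9) in the knockout and 6.45% (3.88 to 9.79) in wild type. Ubx made up 14.6% (7.03 to 27.2) in the knockout and 36.3% (29.6 to 44.5) in wild type. The shares of Abd-B and Ubx did not overlap between genotypes, and those of abd-A did. The knockout sum here was only 1.69 FPKM, and its composition was 36.2 points from that of wild type at 1–2 h and 21.5 points from that at 3–4 h.

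**Figure D4:**
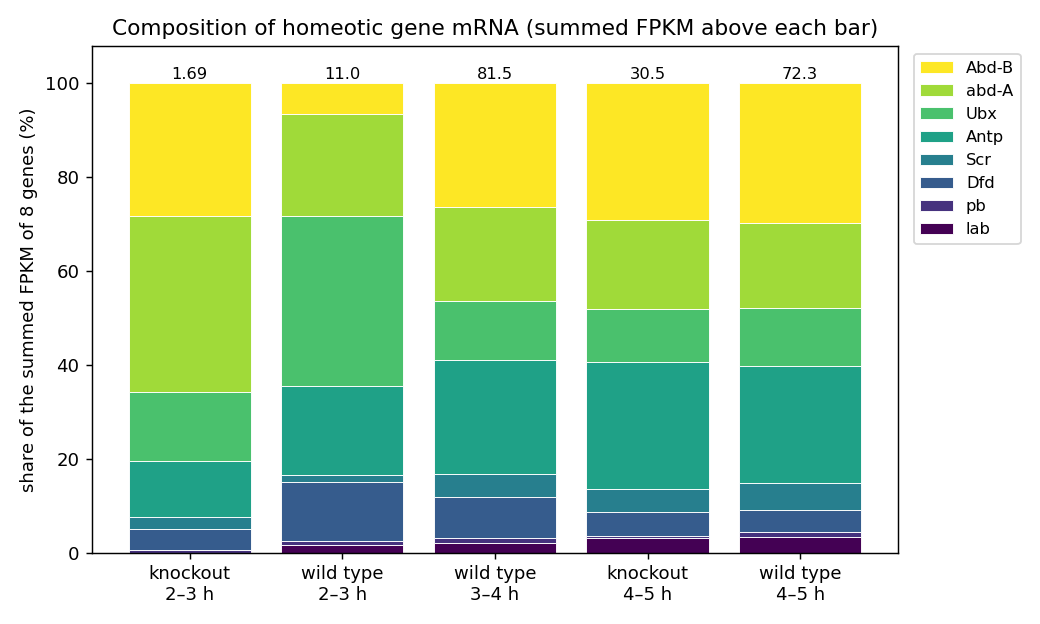
Share of each of the 8 homeotic genes in their summed FPKM (%), 1 bar per table, with the sum in FPKM above each bar. The knockout and wild-type bars of 4–5 h are 3.28 percentage points apart despite sums of 30.5 and 72.3 FPKM, while at 2–3 h Abd-B takes 28.3% in the knockout and 6.45% in wild type.

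The other genes of the complexes were read from the same loci. Between the outermost members of each complex, or overlapping a member, lie 39 further listed genes, 28 in ANT-C and 11 in BX-C. Of these 13 were listed at 0 in all tables, among them the microRNA genes mir-10, mir-993, mir-iab-4 and mir-iab-8, whose short products are not captured by polyadenylated RNA libraries. Only 14 reached 1 FPKM in any table and 10 reached 5 FPKM. CG43252 lies within the Antp locus on the same strand, with at most 1.06 FPKM.

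Of the 11 further genes of BX-C, 4 reached 5 FPKM, and these were the noncoding RNAs bxd, msa, iab-4 and CR43617. In wild type, 10% of the highest value was reached at 0.73 h by CR43617, 0.93 h by bxd, 0.99 h by iab-4 and 1.68 h by msa, against 1.57 h for Ubx, 2.08 h for abd-A and 2.57 h for Abd-B. Only msa of these 4 was thus later than Ubx. Their times do not depend on the 3–4 h table, without which Ubx was at 1.54 h, abd-A at 1.90 h and Abd-B at 2.64 h. The RNA bxd, transcribed from the regulatory region of Ubx, stood at 0.0345, 4.14 (3.40 to 4.88) and 25.9 FPKM (24.0 to 27.8) in the knockout at its 3 stages. In wild type bxd stood at 0.591, 12.4, 70.2 (66.2 to 74.3), 59.6 and 42.0 FPKM (39.0 to 45.0) at the 5 stages. It was thus more abundant than Ubx in both genotypes at the matched stages of 2–3 and 4–5 h.

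CR43617 stood at 0.0832, 0.497 and 4.48 FPKM in the knockout at its 3 stages, against 0.105, 4.61, 18.2, 15.1 and 12.3 FPKM in wild type at the 5 stages. iab-4, the precursor region of a microRNA between abd-A and Abd-B, stood at 0.0199, 0.600 and 4.70 FPKM in the knockout, against 0.190, 2.16, 8.62, 11.6 and 13.5 FPKM in wild type. The longer RNA msa was listed at 0 and stood at 0.270 and 8.04 FPKM in the knockout, against 0.394, 1.28, 9.09, 21.6 and 27.2 FPKM in wild type. The locus of msa contains those of iab-4 and CR43617, which are annotated on the plus strand. The strand of msa was not found in the annotation used. Whether msa shares reads with them in these directional libraries is therefore unknown, and the values of these 3 RNAs are uncertain.

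All 4 noncoding RNAs were lower in the knockout than in wild type at 2–3 and at 4–5 h, without overlap of intervals (29.3% and 44.7% of all genes tested were below at these stages). Of the genes that rise in wild type, 73% and 84.8% were below. The fainter transcripts of BX-C differed less clearly. CG31275 and tre-1, at most 1.96 and 1.25 FPKM in any table, were lower in the knockout at 2–3 h and overlapped wild type at 4–5 h, and tre-2 and tre-3, which stayed below 1 FPKM, overlapped at both stages. For the more abundant RNAs at 4–5 h the knockout had 61.6% of the wild-type level of bxd, 36.5% of CR43617, 34.8% of iab-4 and 29.5% of msa. At 2–3 h it had 5.90% of bxd and between 2.73% and 6.96% of the other 3, while abd-A and Abd-B, on either side of the iab-4 region, had 26.3% and 67.4%. The summed FPKM of the 4 noncoding RNAs was 4.06 times that of Ubx, abd-A and Abd-B in the knockout table of 2–3 h and 2.37 times in that of 4–5 h. In wild type it was 14.3 times at 1–2 h, 14.9 times at 2–3 h, 2.25 times at 3–4 h and 2.18 times at 4–5 h.

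**Figure D5:**
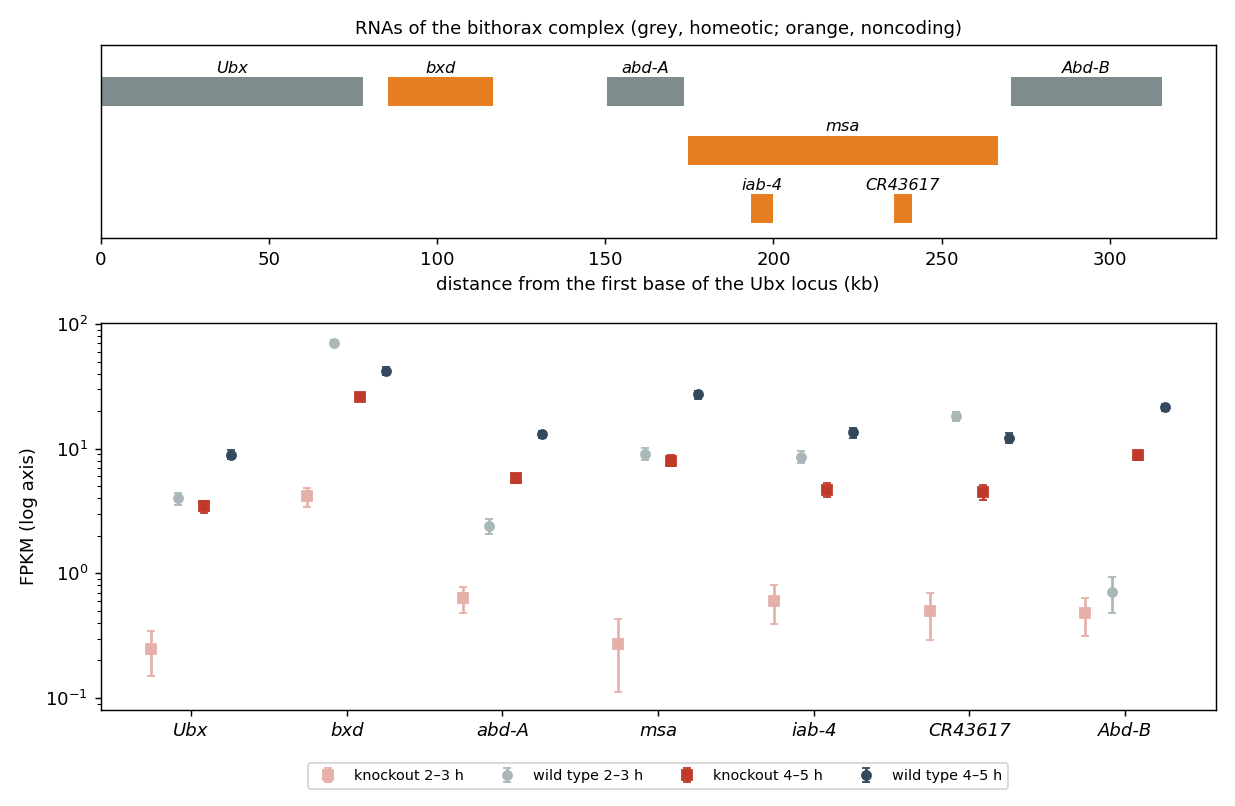
Above, the loci of the 3 homeotic genes (grey) and 4 noncoding RNAs (orange) of the bithorax complex by distance from the first base of the Ubx locus in kb; below, their FPKM on a log axis at 2–3 h (pale) and 4–5 h (dark) in maternal NSUN2 knockout (squares) and wild type (circles), with Cufflinks intervals. At 2–3 h bxd stands at 4.14 FPKM in the knockout and 70.2 FPKM in wild type, while Abd-B stands at 0.478 and 0.709 FPKM.

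From the further genes of ANT-C a list of 5 without a homeotic role was chosen: bcd, zen, zen2, ftz and Ama. Here the knockout differences went both ways at 4–5 h, with 4 of 5 below wild type and 1 above (44.7% and 31.9% of all genes tested). CG42651, a gene of ANT-C outside this list, was also below wild type at 4–5 h. It had 1.04 FPKM (0 to 2.24) in the knockout and 6.12 FPKM (2.57 to 9.67) in wild type. bcd, the maternal gene that sets the anterior of the embryo, was higher at 27.7 FPKM in the knockout and 3.57 FPKM in wild type, a log2(FPKM + 1) difference of 2.65 (11.9% of all genes tested were at least 2-fold higher). zen2, a copy of the dorsal patterning gene zen, had 5.20 FPKM in the knockout and 13.5 in wild type (-1.22), and Ama, which encodes an immunoglobulin-domain protein, had 70.7 and 149.6 FPKM (-1.07). zen and the pair-rule gene ftz had 59.5% and 64.6% of their wild-type levels. Lower knockout values in the cluster were thus shared by zygotic genes of other roles, and the maternal gene bcd lay in the other direction.

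The cofactors of the homeotic proteins differed from each other. hth, which encodes the factor that brings the cofactor Exd into the nucleus, stood at 2.83 and 79.4 FPKM in the knockout at 2–3 and 4–5 h, against 50.1 and 158 FPKM in wild type. Its difference at 2–3 h was -3.74 on the log2(FPKM + 1) scale, larger there than that of any homeotic gene. That scale understates changes of low genes. As a percentage of wild type, hth stood at 5.64%, between Dfd at 5.39% and Ubx at 6.18%, and lab was listed at 0 in the knockout. exd, whose RNA is supplied by the mother, stood at 233 and 244 FPKM in the knockout and at 298 and 225 FPKM in wild type, below wild type at 2–3 h and above it at 4–5 h. The difference of exd at 4–5 h was 0.12, and the median-of-ratios factor at that stage was -0.10 on the log2 scale.

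Of 11 known targets of homeotic proteins, 10 were listed. At 4–5 h, 9 of the 10 were below wild type and Con was above it (44.7% and 31.9% of all genes tested), with a median difference of -0.65, against -0.19 over all genes tested. Of the genes that rise in wild type, 84.8% were below at this stage. The shares over all genes use those with at least 1 FPKM in either table, as 8 of the 10 targets had. The targets ct and Ser, counted as below, were under this level. Only fkh, which acts in the salivary glands, passed a 2-fold difference, at 3.02 FPKM in the knockout and 8.72 FPKM in wild type (-1.27).

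Among the segmentation factors upstream of the homeotic genes, 11 of 12 were below wild type at 4–5 h, none passed a 2-fold difference, and eve overlapped. This stands against 44.7% of all genes tested below wild type, and 84.8% of those that rise in wild type. At 2–3 h 10 of 12 were below, hb was above and gt overlapped (29.3% of all genes were below and 55.7% above). Of the genes that rise in wild type, 73% were below at 2–3 h. Of 16 Polycomb group genes, 12 were below and 3 above at 4–5 h (44.7% and 31.9% of all genes), with ph-p at 9.80 FPKM in the knockout and 20.7 in wild type (-1.01) and Sfmbt at 37.5 and 17.5 FPKM (1.06). Su(z)2, counted as below, was under 1 FPKM in both tables, and the other 15 passed that filter. Of 10 trithorax group genes, 5 were below and 2 above, none by 2-fold, a share below close to the 44.7% of all genes. The median difference at 4–5 h was -0.73 for the segmentation factors, -0.65 for the Polycomb group and -0.05 for the trithorax group. At 2–3 h more genes of the latter 2 lists were above wild type than below. The Polycomb group had 9 of 16 above and 5 below, and the trithorax group 7 of 10 above and 2 below. Over all genes tested, 55.7% were above and 29.3% below at that stage. The median differences were 0.45 and 0.36.

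The courses of the members over the 8 tables resembled each other. Pearson's r of log2(FPKM + 1) ran from 0.89 to 0.99 over the 28 pairs, with a median of 0.96, as a description of 8 tables that share stages and libraries. The most alike pairs were Antp with abd-A and lab with Scr, both at 0.99, and the least alike were pb with Ubx at 0.89. Among 7114 other genes with at least 5 FPKM in a table, the genes closest to the mean course were CG14630, CG10958, wgn, Zasp52 and CG14946, at r between 0.996 and 0.999. The single closest gene was Buffy for lab, CG34007 for pb, Tace for Dfd, otp for Scr, CG10064 for Antp, CG6763 for Ubx, noc for abd-A and bnl for Abd-B. wgn, for example, stood at 0.0145, 0.0724 and 1.90 FPKM in the knockout, against 0.0733, 0.0862, 0.681, 5.06 and 4.39 FPKM in wild type.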

How the data were processed

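Per the labels, polyadenylated RNA of early embryos was sequenced with a directional library kit, and the deposited values are gene FPKM with lower and upper bounds, made by the authors with cutadapt 1.13, TopHat2 and Cufflinks on BDGP5. The samples also received a spike-in mix, which was not used here. There are 8 tables, 1 per condition, each of 15598 genes. No read totals are given in the tables, so the depth is unknown and precision was read from the Cufflinks bounds, whose median width to either side was 23.0% to 29.1% of the value for genes between 1 and 2 FPKM. The tables' summed FPKM ran from 829031 to 1031330, and other scalings were tried.

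Differences were taken on log2(FPKM + 1), and a fold call meant a difference of at least 1 on that scale. Counts over all genes used those with at least 1 FPKM in either table. Strand came from the BDGP6 annotation and coordinates from the tables. Named genes were the 8 members, the other genes of the complexes, Nsun2, the 5 genes closest to the mean course and the closest to each member, and list genes past a 2-fold difference at 4–5 h. Noncoding RNAs, zen, ftz, hth, exd, Con, ct, Ser, Su(z)2, eve, hb, gt, slam, Act87E and elav were named to complete a count or after their values were seen. The members and lists were chosen with earlier results of these data known. Alternatives were other pseudocounts, scalings, filters, onset levels and likeness measures. The calculations were tested on simulated data. Python 3.11.15, numpy 2.4.6, pandas 2.3.3, scipy 1.17.1 and matplotlib 3.10.9 were used.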

Additional observations from a re-analysis of the deposited data

How the results depend on the processing

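No paired analysis was possible because each condition has 1 table and the labels carry no replicate that could be matched across groups. For the same reason no replicate could be left out. Of 196 alternative values, 138 stayed within their intervals or set tolerances and 58 moved. A change of direction was looked for only in differences of single members whose intervals did not overlap, and 0 were found. Other pseudocounts could not give such a change, and a change of sign in rho was counted as moved. The difference of a single member was below 0 in 40 of 40 alternative values at 2–3 h, in 40 of 40 at 4–5 h and in 30 of 40 at 0–0.5 h. The alternatives that changed only the pseudocount could not change this sign, so only the scalings bear on it. With a pseudocount of 0.1, the median differences were -0.41, -1.60 and -1.27 at the 3 matched stages. Quantile scaling gave -0.25 at 0–0.5 h, and the members with at least 1 FPKM gave -1.25 at 2–3 h. The median-of-ratios factors between genotypes were -0.14, -0.55 and -0.10 on the log2 scale at these stages, and the members moved by up to 0.02, by -0.33 to -0.03 and by -0.10 to -0.04 on the log2(FPKM + 1) scale. With a lower bound of 2 FPKM, 2 members were on by 2–3 h in wild type, and with 5 FPKM it was 0, with 3 on by 4–5 h in the knockout, against 6 at 1 FPKM. Spearman's rho of onset with place was -0.29 at 25% and at 50% of the highest value and -0.54 at 1 FPKM, and with span -0.10, -0.10 and -0.43. Without the 3–4 h wild-type table, added after seeing the data, rho with span was 0.24. The wild-type age of the knockout at 4–5 h was 2.98 h with interpolation of log values, 2.74 h with median-of-ratios scaling and 3.16 h without the 3–4 h table. Of the 5 genes closest to the mean course, 2 remained with a pseudocount of 0.1 and 0 with Spearman's rho. The cause of these shifts was not tested. Below 1 FPKM the Cufflinks intervals are wide relative to the value, which limits pb at every stage, lab up to 2–3 h and in the knockout, and all members at 0–0.5 h.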
